A study of Homo sapiens with 4 samples.

Results

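The 8q24 segment around MYC was described by its contact with the nuclear lamina in 2 human prostate cancer cell lines. The members are the 40 kb bins of chromosome 8 from 127000000 to 130500000 (hg19), chosen by position alone. All 87 bins that lie wholly inside, 127000001 to 130480000, had a value in both lines, out of 71569 such bins in the genome. Within them 3 genes were marked: POU5F1B at 128427000 to 128430000, MYC at 128748000 to 128754000 and PVT1 at 128806000 to 129114000. POU5F1B and MYC are each shorter than a bin and are represented by 1 bin, and PVT1 is overlapped by 8 bins.

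LNCaP, an established cell line, derives from prostate adenocarcinoma, and VCaP, also established, from a prostate cancer that had spread to bone. Both were cultured without a drug or genetic change named in the labels, LNCaP in RPMI and VCaP in DMEM F12, each with serum, and were fixed with formaldehyde. Each line gave 1 library from lamin B1 immunoprecipitation and 1 input library without antibody, 4 libraries in all, and each value is the log2 enrichment of the former over the latter. Neither line has a second pair of libraries, so no p-value is given, and a statement about a line refers to its 1 pair. RNA was not measured, and the read depth behind each bin is unknown.

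The lamina is a protein mesh that lines the inside of the nuclear envelope, and lamin B1 is one of its filament proteins. Long stretches of chromatin that touch it are usually poor in genes and in active transcription, so gene deserts are often found there. MYC encodes a transcription factor that drives growth and proliferation. The desert beside it is known for distant enhancers that contact MYC and for inherited risk of prostate cancer. PVT1 is a long noncoding RNA gene next to MYC that is often gained together with it in tumours, and POU5F1B is a retrogene copy of POU5F1, the gene of the pluripotency factor OCT4.

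The locus is poor in protein-coding genes. In the RefSeq annotation, whose build is GRCh38 and which was used only for gene order and type, the protein-coding genes run LRATD2 (FAM84B), POU5F1B, MYC, GSDMC. Between LRATD2 and GSDMC lie 38 annotated genes, of which 2 are protein-coding, POU5F1B and MYC. The others are 23 long noncoding RNA genes, 6 microRNA genes and 7 pseudogenes. PCAT1, PCAT2, PRNCR1, CASC19, CCAT1, CASC21, CASC8 and CCAT2 lie in this order between LRATD2 and POU5F1B, and CASC11 lies between POU5F1B and MYC. These genes have no value here, because their hg19 positions were not at hand.

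On average over the segment LNCaP was low, with its ends near or over 0, and VCaP was closer to its genome level. The mean log2 enrichment of the 87 bins was -0.35 in LNCaP (range -1.57 to 0.35, median -0.29) and 0.11 in VCaP (range -0.90 to 0.78, median 0.11). The noise SD of such a mean, taken from bins 3 apart across the genome, was 0.03 in LNCaP and 0.04 in VCaP. Over the rest of chromosome 8 (3487 bins) the mean was 0.03 in LNCaP and 0.21 in VCaP. The zero points differ, since the genome median was 0.06 for LNCaP and 0.19 for VCaP. With each line set to its own genome median, the mean of the segment was -0.41 for LNCaP and -0.083 for VCaP.

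The deposited model labels every bin as lamina-associated or not. In LNCaP 0 of the 87 bins were associated, against 37.9% of all bins in the genome. In VCaP 32 of 87 were associated (36.8%), against 44.4% in the genome, so the VCaP share was somewhat under the background. Enrichment was over 0 in 25 LNCaP bins (28.7%) and in 63 VCaP bins (72.4%), whereas the shares in the genome were 56.9% and 66.9%. The VCaP label was not a threshold on single bins: associated bins ran from 0.07 to 0.78, and 31 of the 55 other bins were also over 0, up to 0.49. Nor did the label follow the level alike in the lines. At 127240001 to 127280000 LNCaP had 0.26 and was not labelled associated, whereas VCaP had 0.09 and was.

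**Figure D1:**
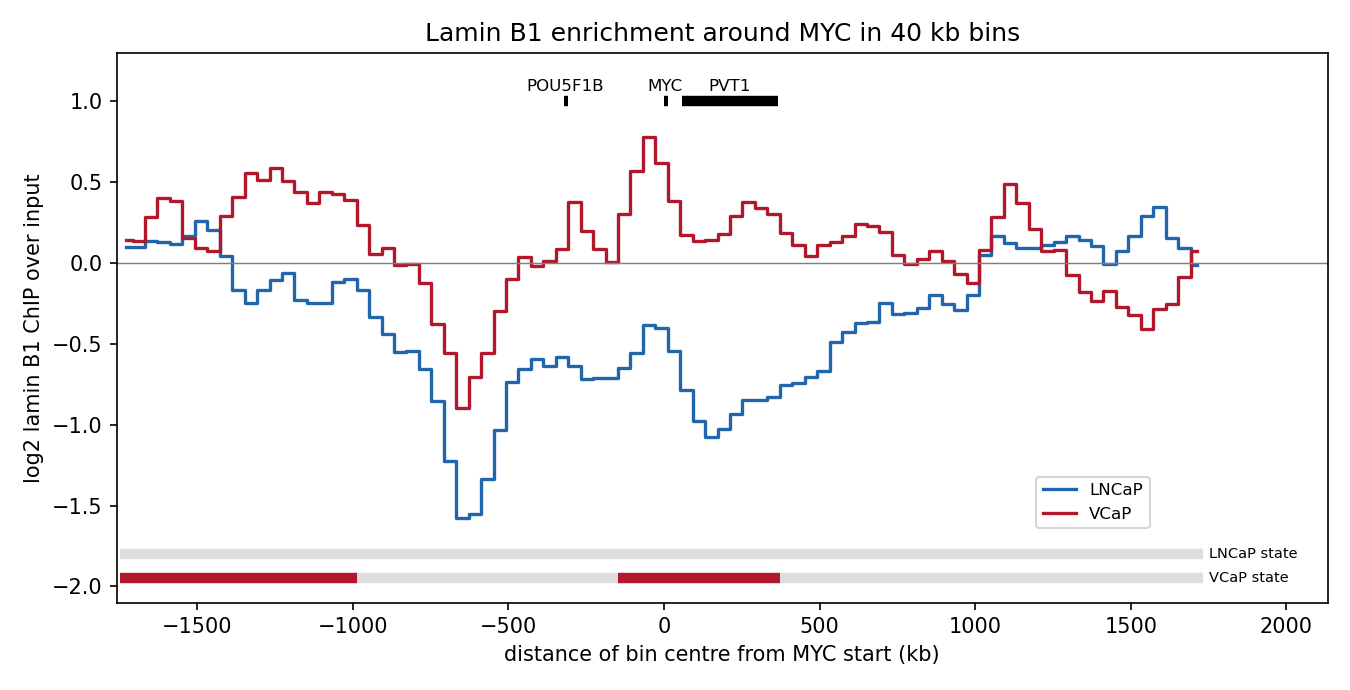
Log2 lamin B1 enrichment over input in each 40 kb bin (y axis) against distance from the MYC start in kb (x axis), LNCaP blue and VCaP red; POU5F1B and MYC are drawn at least 12 kb wide. The bars at the foot give the deposited state, coloured where associated: no LNCaP bin is coloured, and VCaP has 2 coloured blocks, of which the right one spans MYC and PVT1.

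MYC itself lay in bin 128720001 to 128760000. LNCaP had a deposited log2 enrichment of -0.40 there and VCaP one of 0.62, and the noise SD of a single bin was 0.15 and 0.22. LNCaP was thus low and VCaP high at MYC: 8.05% of the genome's bins were lower in LNCaP and 82.4% were lower in VCaP. On chromosome 8 alone these percentages were 15.3% and 83.4%. The bin was outside the associated state in LNCaP and inside it in VCaP. The difference of 1.02 was 5.17 times the noise SD of a bin difference (0.20).

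The deposited values appear to be averaged, and this matters at MYC. Entries were treated as trailing averages over 3 bins, so that the MYC value would also carry the 2 bins upstream of it. With that average undone, MYC had -0.57 in LNCaP and 0.21 in VCaP. The undone VCaP value was within the noise SD of an undone bin (0.33) and therefore could not be told from 0. The undone difference of 0.78 exceeded 0.59, which is 2 times the noise SD of an undone difference (0.29). That noise SD is smaller than the 0.33 of VCaP alone, which independent noises of the lines would not give. The 0.33 may overstate the noise of a line, or the 0.29 may understate that of a difference. Which of these holds was not tested. Adding the noises of the lines in quadrature was not run for undone values. The 2 bins that enter the MYC value, 128640001 to 128720000, had undone VCaP values of 0.76 and 0.88, and the bin before them had 0.71. In LNCaP the 3 bins from 128600001 to 128720000 had -0.51, -0.32 and -0.32. These were less negative than the MYC bin, but none by more than 2 noise SDs of an undone LNCaP bin (0.22 each). The bin between MYC and PVT1 had undone values of -0.73 in LNCaP and 0.06 in VCaP. It was lower than the MYC bin in both lines, by less than 1 noise SD of an undone bin.

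**Figure D2:**
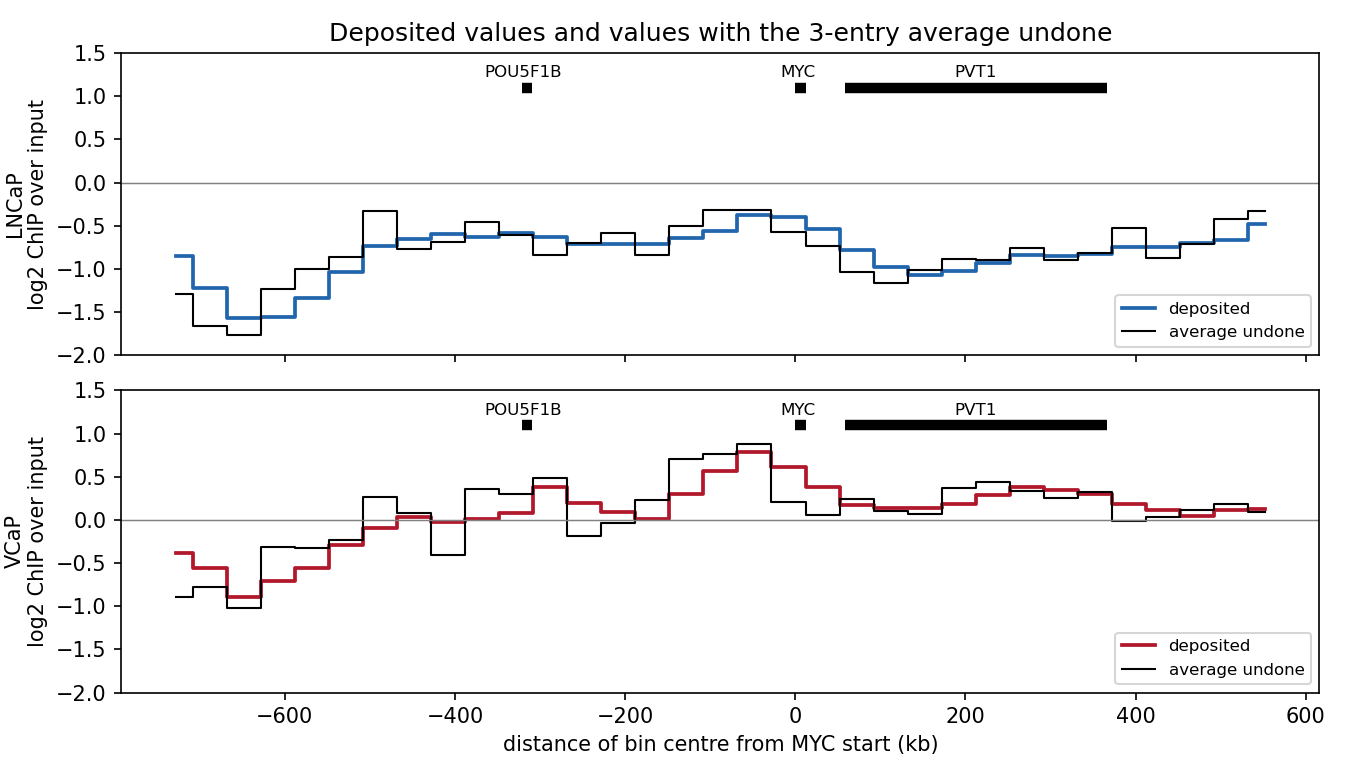
Deposited log2 enrichment (coloured) and the same values with the 3-entry average undone (black) against distance from the MYC start in kb, LNCaP above and VCaP below. The undone VCaP values peak at 0.88 just before MYC and drop to 0.21 in the MYC bin.

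PVT1 held the largest differences between the lines. Its 8 deposited values in LNCaP were, in chromosome order, -0.78, -0.98, -1.07, -1.02, -0.93, -0.85, -0.85 and -0.83. In VCaP they were 0.17, 0.14, 0.14, 0.18, 0.29, 0.38, 0.34 and 0.30. No bin of either line overlapped the range of the other. The LNCaP mean was -0.91 with a noise SD of 0.09, and every bin of the gene was among the lowest 1.35% of the genome's bins. The VCaP mean of 0.24 was less than 2 noise SDs (0.14 each) from 0, and 45.2% to 65.9% of the genome's bins were lower than these values. PVT1 in VCaP therefore had a middling level, although all 8 bins were labelled associated.

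The mean difference over PVT1 was 1.16 with a noise SD of 0.12. The largest bin difference of the segment, 1.23, was in PVT1 at 128960001 to 129000000, and 98.5% of the genome's bins had a smaller one. Undoing the average changed PVT1 little: its mean was then -0.94 in LNCaP and 0.27 in VCaP, and the 6 bins wholly inside gave -0.94 and 0.26. With each line set to its genome median, the difference was 1.02, and the VCaP mean was 0.052.

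POU5F1B lay in bin 128400001 to 128440000 and was the least different of the 3 genes in the deposited values. LNCaP had a log2 enrichment of -0.58, lower than all but 3.25% of the genome's bins, and VCaP had 0.09, with 40.4% of bins lower. Neither line labelled it associated. The difference of 0.67 was larger than 2 noise SDs, 0.39, and 86.5% of the genome's bins had a smaller difference. Undone, the gene had -0.61 for LNCaP and 0.30 for VCaP and so differed by 0.91. Relative to the genome median of VCaP, its deposited value was -0.11. Ordered by deposited level, the genes ran PVT1, POU5F1B, MYC in LNCaP and POU5F1B, PVT1, MYC in VCaP. With noise SDs of 0.15 and 0.22 for a single bin, POU5F1B and MYC in LNCaP and POU5F1B and PVT1 in VCaP were not separated by more than the noise, and undone the 3 VCaP values lay between 0.21 and 0.30.

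**Figure D3:**
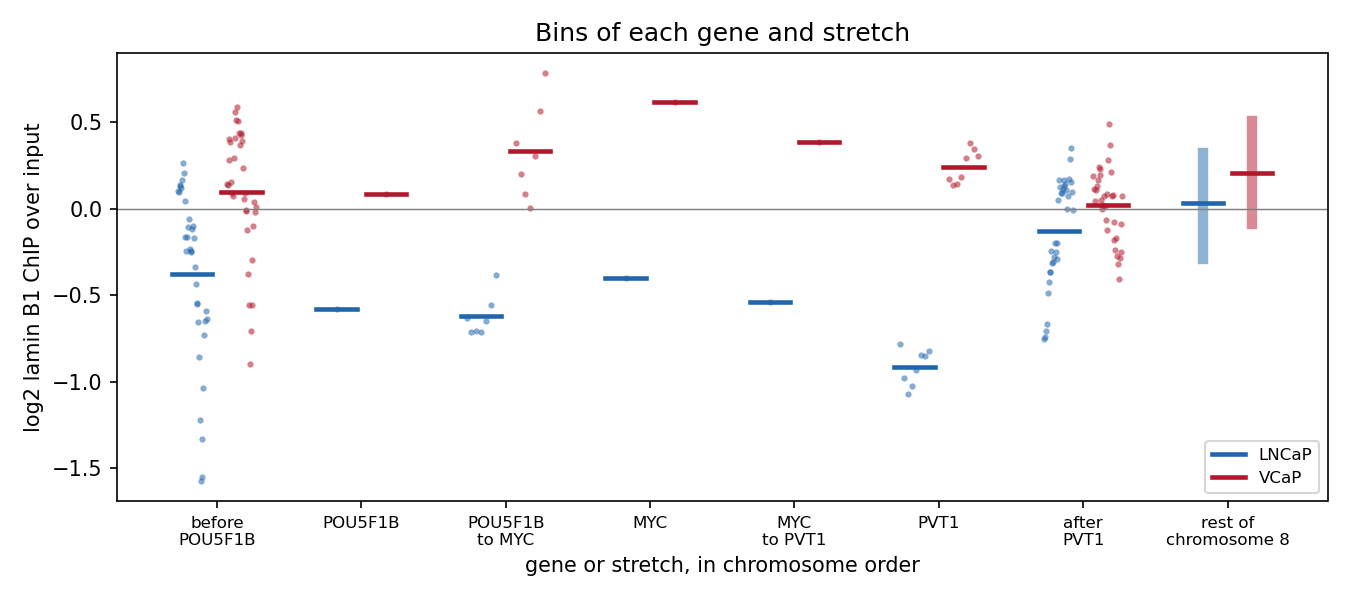
Log2 enrichment of every bin (points) and the mean (bars) for each gene and stretch in chromosome order, LNCaP blue and VCaP red; for the rest of chromosome 8 the block spans the interquartile range. LNCaP and VCaP do not overlap in the bins from POU5F1B through PVT1, and they overlap in the outer stretches.

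The stretch before POU5F1B (35 bins) held the lowest bin of both lines. At 128080001 to 128120000 LNCaP had a log2 enrichment of -1.57 and VCaP one of -0.90, and 0.232% and 0.587% of the genome's bins were lower. In LNCaP a run of 5 bins, 128040001 to 128240000, was under -1, and in VCaP 4 of them, 128040001 to 128200000, were under -0.5. Undone, the lowest bin stayed in place with -1.76 in LNCaP and -1.02 in VCaP. The lines thus shared this trough, with VCaP 0.68 above LNCaP at its bottom. By contrast the second LNCaP trough, whose lowest bin is -1.07 at 128880001 to 128920000 in PVT1, had 0.14 in VCaP at the same place. Undone, its lowest bin moved upstream to 128840001 to 128880000, with -1.16 in LNCaP and 0.11 in VCaP.

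How alike the profiles were differed along the segment. Across the 35 bins before POU5F1B the lines correlated with a Pearson r of 0.85, and across the 7 bins between POU5F1B and MYC with 0.95. Across the 34 bins after PVT1, r was -0.38, and over all 87 bins it was 0.27, against 0.42 on the rest of chromosome 8. The Spearman rho was 0.07 over all 87 bins and 0.44 on the rest of chromosome 8. For the stretches, in the order above, rho was 0.68, 0.89 and -0.43. Among 734 other windows of 87 bins the median Pearson r was 0.52, and 21.9% had a lower r than the segment. These correlations are across neighbouring bins that share averaged entries and describe only these libraries.

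The outer ends of the segment were near or over 0 in LNCaP. The first 9 bins, up to 127360000, were all over 0 in LNCaP, followed by 60 consecutive bins under 0 from 127360001 to 129760000 with a mean of -0.57. VCaP averaged 0.14 over those 60 bins. Beyond 129760000 LNCaP returned to values around 0, up to 0.35 at 130320001 to 130360000, its highest bin of the segment. VCaP there was at -0.29, and it was under 0 in 10 consecutive bins, 130040001 to 130440000.

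VCaP exceeded LNCaP in 72 of 87 bins. The difference passed 2 noise SDs in 52 bins with VCaP higher (59.8%), where 27.6% of all bins in the genome and 31.6% on chromosome 8 did. LNCaP was higher past 2 noise SDs in 4 bins, against 14.1% in the genome, and 31 bins were within the noise. The bins with VCaP higher formed 2 runs, 11 bins from 127360001 to 127800000 with a mean difference of 0.61 and 41 bins from 127840001 to 129480000 with 0.82. The second run holds all 3 genes, and the bins of the genes passed in number as 1 of 1 for POU5F1B, 1 of 1 for MYC and 8 of 8 for PVT1. The 4 bins with LNCaP higher lay together at 130240001 to 130400000, where LNCaP averaged 0.24 and VCaP -0.31. With each line set to its genome median, 48 bins had VCaP higher and 7 had LNCaP higher.

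**Figure D4:**
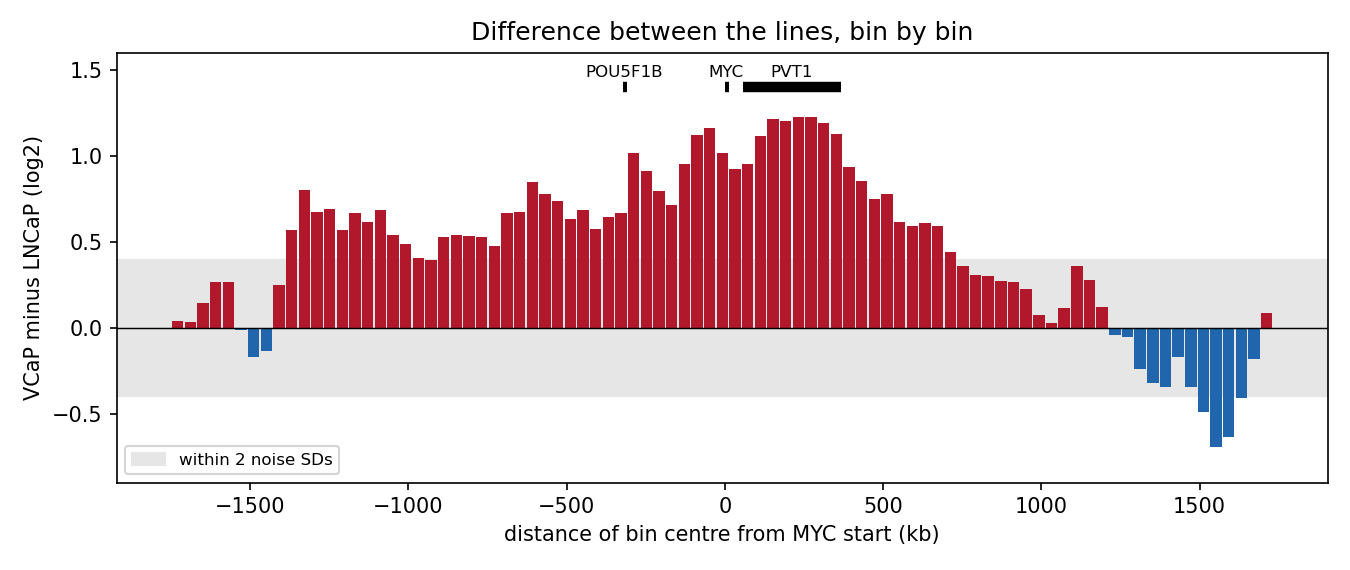
VCaP minus LNCaP log2 enrichment per bin (bars, red where VCaP is higher and blue where LNCaP is) against distance from the MYC start in kb; the grey band marks 2 noise SDs, 0.39. The bars over PVT1 reach 1.23, and 4 blue bars near the right end leave the band.

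The state borders placed the genes differently in the lines. In LNCaP the segment had no border: MYC lay inside an 8360 kb run outside the associated state, 123520001 to 131880000, longer than 95.8% of the 951 such runs in that line. The nearest associated bin was 5228 kb upstream and 3126 kb downstream of MYC, with 0.35 and 0.30. The run outside the state reached a similar level, 0.35, at 130320001 to 130360000, so the label alone does not show a lack of enrichment. In VCaP MYC and PVT1 shared an associated domain of 13 bins, 128600001 to 129120000, which begins 148 kb before MYC and ends 6 kb after PVT1. Borders can fall only on 40 kb bin edges, so these distances are no finer than a bin. Whether the labels were made from averaged values is unknown. Undone, the MYC bin had 0.21 in VCaP, within the noise SD of an undone bin (0.33). The 520 kb of this domain were shorter than the VCaP median of 600 kb over 1200 domains, and its mean log2 enrichment was 0.35.

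A second VCaP domain reached into the segment from the left, 126400001 to 127760000, with a mean of 0.43 over 34 bins, 19 of which belong to the segment. Between both domains lay 840 kb outside the associated state that hold POU5F1B and the shared trough, with a mean of -0.12. The VCaP level changed by -0.34 at border 127760000, by 0.38 at 128600000 and by -0.18 at 129120000, comparing the 5 bins on each side. The step at the right end of the MYC and PVT1 domain was the smallest, and the 5 bins beyond it still averaged 0.12. No noise SD is given for a step. A VCaP mean over the 7 bins between POU5F1B and MYC had a noise SD of 0.15, and means of 5 bins are noisier. Neither the steps nor their order can therefore be called larger than the noise.

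Windows of the same 87 bins were tiled over the genome to place the segment. Of 734 other windows, 28 had a lower LNCaP mean (3.81%), and 331 had a lower VCaP mean (45.1%). The mean VCaP minus LNCaP difference of 0.46 was exceeded by 115 windows, and the median window had 0.04. The LNCaP values within the segment were also uneven, and 22 windows had a larger SD among their bins. No associated bin in LNCaP was found in 124 windows (16.9%), so that feature was shared with many others. The windows nearest in both means were on chromosome 9 from 111160001 to 114640000 (-0.37 in LNCaP, 0.10 in VCaP), chromosome 13 from 106040001 to 109520000 (-0.32 and 0.10) and chromosome 10 from 87240001 to 90720000 (-0.37 and 0.07). All 3 also had 0 associated bins in LNCaP and had 31, 32 and 30 in VCaP. With tiles shifted by 40 bins the nearest windows were on chromosomes 6, 8 and 9, and the last shares 47 bins with the chromosome 9 window above. These shifted windows had 0, 2 and 0 associated bins in LNCaP and 35, 45 and 24 in VCaP.

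**Figure D5:**
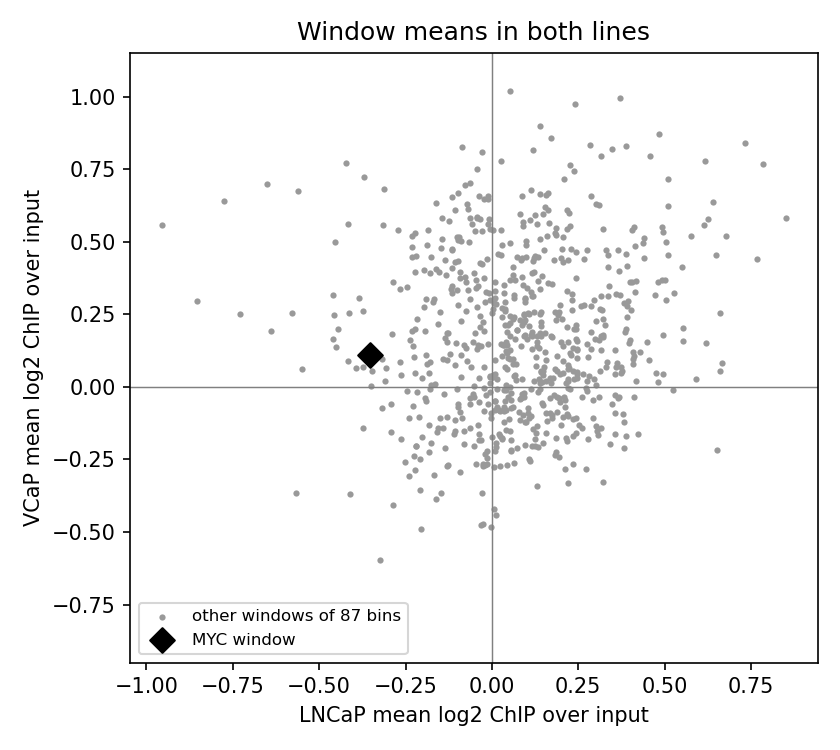
Mean log2 enrichment of windows of 87 bins in LNCaP (x axis) and VCaP (y axis), with 734 windows as grey points and the MYC segment as a black diamond. The diamond lies at -0.35 and 0.11, left of most points and at mid height.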

How the data were processed

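The labels give lamin B1 ChIP and input libraries of LNCaP and VCaP, 1 of each. The authors deposited the log2 ratio of ChIP to input per 40 kb bin (hg19) and, in a second table per line, 1 of 2 state words per bin, AD (taken as associated) or iAD, named there as from a hidden Markov model. The submitters' processing notes list STAR and hg19. Scaling, filters and model settings are not given in the sources used here, and depth is unknown.

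Multiplying values by 3 raised the share that are whole millionths (within 0.01 of one) from 20.1% to 59.3% in LNCaP and from 22.9% to 68.5% in VCaP, whereas multiplying by 2 gave 21.4% and 23.9%. Values were therefore treated as trailing means of 3 entries. The mean was undone by recursion, with the unknown offsets set so that each phase of 3 entries had a median of 0 around the local mean.

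Noise SD is 1.4826 times the median absolute difference of bins 3 apart, over the root of 2, for each line and for the difference. A mean over several bins counts 1 separate value per 3 bins. This noise covers neighbouring bins of the same library, not cultures. For deposited values it was 0.20 for a difference, smaller than the 0.22 of VCaP alone, whereas the noises of the lines added in quadrature gave 0.27. A bin belongs to a gene if it overlaps it. All 3 genes, the highest and lowest bin of each line, the largest differences, every border and the 3 nearest windows were named by rule, and the 3 bins before MYC and the runs under a level were picked after their values were seen. Members, lists and rules were chosen with earlier results of these data known. No test was run, as each group has 1 library. Only the undoing of the average and the noise estimate were tested on simulated data, the latter on independent values without domains. All steps ran in Python 3.11.15 with numpy 2.4.6, pandas 2.3.3 and matplotlib 3.10.9. No reference sequence of this chromosome is shown.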

Additional observations from a re-analysis of the deposited data

Results flagged for a closer look

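Lamin B1 enrichment over input had opposite signs in the lines in every stretch from POU5F1B through PVT1. Every deposited bin there was under 0 in LNCaP and over 0 in VCaP. The VCaP minus LNCaP difference was 0.67 at POU5F1B (1 bin), 0.96 between POU5F1B and MYC (7 bins) and 1.02 at MYC (1 bin). Between MYC and PVT1 (1 bin) it was 0.92, and over PVT1 (8 bins) it was 1.16. This contrast between the lines was not tested, since each has 1 pair of libraries. The VCaP value lay within 1 noise SD of a bin (0.22) from 0 at POU5F1B, in 3 of the 7 bins between POU5F1B and MYC and in 4 of the 8 PVT1 bins. With the average undone, 2 of those 7 bins were under 0 in VCaP. The sign also depends on the zero point: set to the genome median of each line, POU5F1B in VCaP was -0.11.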

How the results depend on the processing

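Across 40 results and 135 alternative values, 10 values changed sign, and for 3 of these the deposited value was over 2 noise SDs from 0. Leaving out those 3, 84 values stayed within the noise, the interval of a share or 1.5 times a count, and 48 moved further. The differences at POU5F1B, MYC and PVT1 kept VCaP higher past the noise in every setting run, each setting being varied alone. With the noise of the lines added in quadrature the threshold was 0.54. It was not combined with centring or with undoing the average. Centred on the genome or on chromosome 8, the POU5F1B difference, 0.53 or 0.46, was under that threshold. Centred on the genome median, the segment mean was -0.41 in LNCaP and -0.083 in VCaP (sign changed), the mean difference 0.33, POU5F1B had -0.11 in VCaP, and PVT1 had 0.052 in VCaP and a difference of 1.02. Centred on the chromosome 8 median, the VCaP mean was -0.10 (sign changed), the mean difference 0.25, POU5F1B had -0.13 in VCaP, PVT1 had 0.033 in VCaP, the differences at POU5F1B, MYC and PVT1 were 0.46, 0.81 and 0.95, and the difference after PVT1 was -0.063 (sign changed). The stretches before POU5F1B and after PVT1 in VCaP were -0.096 and -0.17 with the first centring, -0.11 and -0.19 with the second, and the latter was -0.021 after quantile normalization, against 0.097 and 0.023 as deposited. Quantile normalization gave -0.32 and 0.054 for the segment and a difference of 0.37. Undoing the average gave MYC -0.57 in LNCaP and 0.21 in VCaP, and differences of 0.78 at MYC and 0.91 at POU5F1B. The bin 1 downstream had 0.38 in VCaP both for POU5F1B and for MYC. Without the outermost 5 bins the LNCaP mean was -0.42. With enrichment over 0 as the state, 28.7% of LNCaP and 72.4% of VCaP bins were associated, and a running median of 5 bins over 0 gave 2 borders in LNCaP. Bins with VCaP higher ranged from 38 to 55. Bins with LNCaP higher numbered 7 when centred on the genome, 8 on chromosome 8, 7 after quantile normalization, 7 with noise from bins 2 apart, and 2 with 3 noise SDs or with the noise of the lines added in quadrature, chosen after seeing the data. Causes were not tested beyond the construction of each setting. No paired analysis was possible because no group holds more than 1 library.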
